A study of Mus musculus with 3 samples.

Results

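Somatostatin-positive (Sst) nuclei of the basolateral amygdala (BLA) were taken from single-nucleus RNA sequencing (snRNAseq) of male C57BL/6NRj mice at postnatal day 56, the only condition analysed here, with no treatment named in the labels. Of 3 libraries, replicates 2 and 3 were used. They held 3792 and 4588 barcodes with 24354374 and 33049068 unique molecular identifiers (UMIs, 1 per captured RNA molecule). BLA tissue was microdissected from slices, and the methods give 4 brains of 1 litter, both hemispheres, for each dataset. A GABAergic base was formed from barcodes with over 200 genes and under 20% mitochondrial UMIs that had at least 1 UMI of the GABA-synthesis genes Gad1 or Gad2, none of the vesicular glutamate transporters Slc17a7 and Slc17a6, and under 0.1% of UMIs from the glial glutamate transporters Slc1a2 and Slc1a3. Sst nuclei were the base nuclei with at least 1 Sst UMI, fewer than 3 Foxp2 UMIs and fewer than 2 Moxd1 UMIs. The rule gave 73 Sst nuclei of 1646 base nuclei and of 8380 barcodes in these 2 libraries. All 3 libraries together held 9199 barcodes. There were 27 of 605 base nuclei in replicate 2 (4.46%, exact binomial 95% interval 2.96 to 6.43) and 46 of 1041 in replicate 3 (4.42%, 3.25 to 5.85), so the share was alike in both libraries within counting error. Replicates 2 and 3 had 7 barcodes in common, 1 of them that of a Sst nucleus.

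Somatostatin is a neuropeptide that inhibits hormone and transmitter release through G-protein-coupled receptors. In cortex and in the cortex-like BLA, Sst interneurons target the dendrites of principal neurons. They arise from the medial ganglionic eminence (MGE) under Lhx6, Sox6 and Satb1, whereas most vasoactive intestinal peptide (Vip), Reln and Cnr1 interneurons come from the caudal ganglionic eminence (CGE), and intercalated cells, which carry Foxp2, belong to a striatum-like lineage.

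Sst (ENSMUSG00000004366) is protein coding and lies on the minus strand at chr16:23889573-23890958 (GRCm38, GENCODE vM21). Because Sst is the gene that chose the nuclei, and because it is known for its cyclic AMP response element, its promoter is given from RefSeq (GRCm38.p6), chr16:23890795-23891094, minus strand, 250 bases before to 50 after the RefSeq start, with that element in capitals:
Sst: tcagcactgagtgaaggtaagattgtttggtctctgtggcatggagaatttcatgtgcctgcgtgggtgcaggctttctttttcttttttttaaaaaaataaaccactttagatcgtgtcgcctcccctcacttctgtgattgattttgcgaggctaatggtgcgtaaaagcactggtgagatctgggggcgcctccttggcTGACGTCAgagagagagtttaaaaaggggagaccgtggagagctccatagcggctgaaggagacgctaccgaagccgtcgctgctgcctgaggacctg
The element searched was TGACGTCA, which reads the same on both strands. It occurred once, beginning 48 bases before the RefSeq start, and GENCODE sets its outermost start further upstream, so that the element lies within the gene span of that annotation. Of 32851 promoter windows of the same length, 588 (1.79%) held it. The windows of Npy, Nos1, Chodl, Elfn1, Satb1, Lhx6 and Sox6, genes described further on, did not hold these letters, which says nothing of the factors that bind there.

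Sst UMIs were few in most Sst nuclei. The count per nucleus ran from 1 to 20 with a median of 2, and 32 nuclei had a single Sst UMI, 27 had 2 to 4 and 14 had 5 or more. The 14 nuclei, 6 in replicate 2 and 8 in replicate 3, held 60 of 101 and 61 of 122 Sst UMIs of the Sst nuclei of their library.

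**Figure D1:**
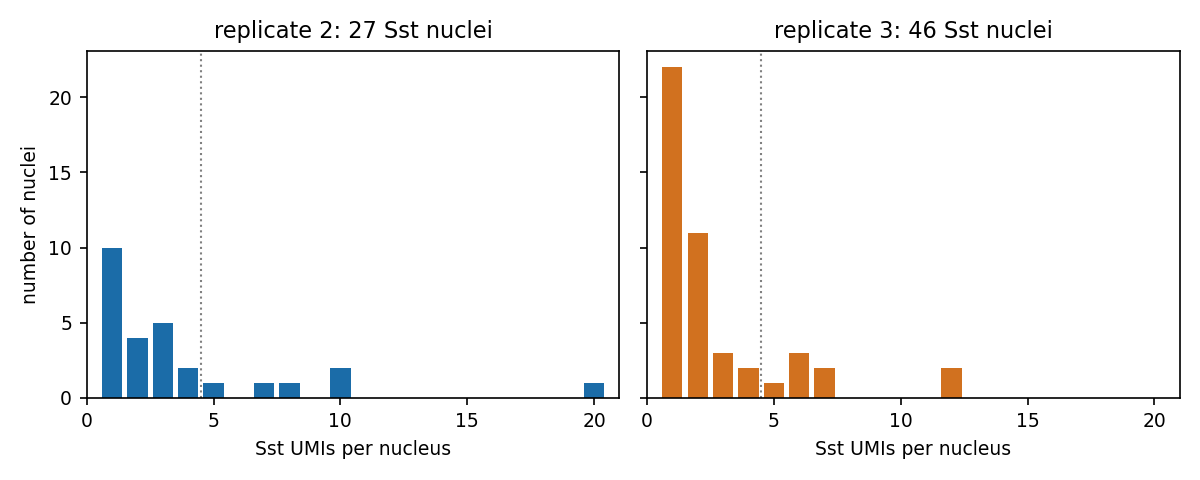
Number of Sst nuclei (vertical axis) by their Sst UMIs (horizontal axis) in replicates 2 and 3; the dotted line separates nuclei with 5 or more. Most nuclei held 1 or 2 Sst UMIs, and the highest counts were 20 and 12.

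Free RNA can give single UMIs, so Sst was also read in barcodes that should lack it. Astrocyte barcodes carried a Sst UMI in 4 of 485 (0.825%) and in 16 of 1096 (1.46%), never more than 1 each, at median depths of 2566 and 2972 UMIs. Base nuclei carried it in 7.27% and 9.89%, at median depths of 5905 and 6222 UMIs. After each nucleus was thinned to 2400 UMIs, with 96 and 66 shallower base nuclei left out, the shares were 4.52% and 5.23% in the base against 0.377% and 0.963% in astrocyte barcodes. The astrocyte shares, applied to the 322 and 388 base nuclei within the Foxp2 and Moxd1 limits, would correspond to 2.66 and 5.66 nuclei, beside 10 and 22 Sst nuclei with a single UMI. These shares were not scaled to the greater depth of base nuclei. Glutamatergic barcodes, at median depths of 21321 and 16614 UMIs, carried a Sst UMI in 3 of 252 and 0 of 63 (up to 4.76% at a limit of 3 counts). Single-UMI nuclei that hold free RNA and those that express Sst cannot be told apart.

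The limits on Foxp2 and Moxd1 kept many Sst-bearing nuclei out. Of 147 base nuclei with any Sst UMI, 74 were left out, 27 through Foxp2 and 51 through Moxd1, some through both. Moxd1 encodes a monooxygenase-like protein. The nuclei left out through it carried several genes of the Sst nuclei in larger shares than the Sst nuclei did. Elfn1 was found in 13 of 14 and 33 of 37, Sox6 in 14 of 14 and 37 of 37, and Nxph1 in 14 of 14 and 37 of 37. Lhx6 was found in 8 of 14 and 18 of 37, beside 9 of 27 and 16 of 46 Sst nuclei, and Calb1 in 11 of 14 and 36 of 37, beside 12 of 27 and 19 of 46. Satb1 was found in 7 of 14 and 19 of 37, beside 13 of 27 and 27 of 46 Sst nuclei. The nuclei left out through Moxd1 were deeper, with medians of 11077.5 and 11554 UMIs against 8321 and 7812, and the part of depth in these shares was not tested. Their calbindin (Calb1) level was 3.88 and 4.28 UMIs per 10,000 UMIs of the summed nuclei, the level scale used from here on, against 0.964 and 1.30 in Sst nuclei. The nuclei left out through Foxp2 looked otherwise, with Meis2, a homeobox factor of striatum-like neurons, in 3 of 3 and 24 of 24 and Elfn1 in 0 of 3 and 7 of 24. Just inside the limits, the 3 nuclei with 2 Foxp2 UMIs, all in replicate 3, had Meis2 at 12.1 and 1 Sst UMI each, and the single nucleus with 3 had Meis2 at 5.42. The 7 and 5 nuclei with 1 Moxd1 UMI had Elfn1 at 4.65 and 3.09, and the 14 and 37 nuclei with 2 or more at 4.22 and 2.65. These values describe the rule and were not tested. The Sst nuclei held 39.8% and 25.7% of all Sst UMIs of their library, and base nuclei outside the limits held 21.7% and 37.1%.

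**Figure D2:**
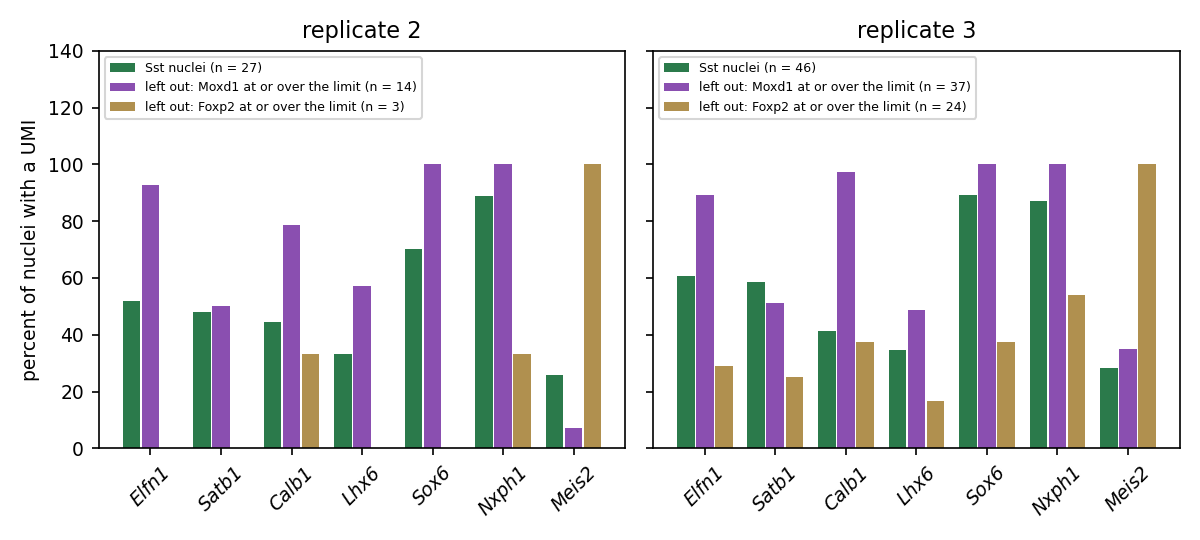
Percent of nuclei with at least 1 UMI of 7 genes (bars) in Sst nuclei and in Sst-bearing base nuclei left out by the Moxd1 or Foxp2 limit, for replicates 2 and 3. Nuclei left out through Moxd1 held Elfn1, Sox6 and Nxph1 in most or all nuclei, and those left out through Foxp2 all held Meis2.

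The other markers of the label, Elfn1, Satb1 and Calb1, were each found in part of the Sst nuclei. Elfn1, a leucine-rich repeat protein of Sst interneuron synapses, had a UMI in 14 of 27 (51.9%) and 28 of 46 (60.9%) Sst nuclei. Satb1, a chromatin organizer of maturing Sst interneurons, had one in 13 of 27 (48.1%) and 27 of 46 (58.7%). Calb1, a calcium buffer, had one in 12 of 27 (44.4%) and 19 of 46 (41.3%). Among 7 genes of the type (Elfn1, Satb1, Calb1, Lhx6, Sox6, Grin3a and Nxph1), the median Sst nucleus held 5 in either library, and 3 of 73 nuclei held none. The nuclei that held none all had a single Sst UMI. Single-UMI nuclei held medians of 2.5 in replicate 2 and 4 in replicate 3, at median depths of 3872.5 and 6825 UMIs. Those with 2 to 4 Sst UMIs held 5 and 5.5, and those with 5 or more held 5.5 and 5. The part of depth in this was not tested. Of the matched nuclei without Sst defined in the next paragraph, those under the same limits held a median of 2 in either library, and those of the wider match 1 in replicate 2 and 2 in replicate 3.

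To ask what set Sst nuclei apart, each was matched within its library by total UMIs to up to 3 base nuclei without Sst, and the counts were summed per library and group (81 and 138 matched nuclei). In the wider comparison, the matched nuclei came from all base nuclei without Sst. In the narrower one, they also met the Foxp2 and Moxd1 limits, so that both sides obeyed the same rule. Median depth was 8321 and 7812 UMIs in Sst nuclei, 8314 and 7812.5 in the wider match and 8212 and 7718 in the narrower one. Sums of 2 libraries were compared with 2 by edgeR's quasi-likelihood test with Benjamini-Hochberg adjustment over all genes, and fold changes are given as log2 ± SE. Nothing in the labels says that the libraries are separate preparations of animals, so that p-values measure the spread between these libraries. Genes of the rule were not tested.

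In the wider comparison, 103 of 6108 genes were higher and 98 were lower in Sst nuclei (1.69% and 1.60% of those tested, 3.29% together). With the library as a replicate block, 175 (2.87%) and 194 (3.18%) were called, 6.04% together. The Foxp2 and Moxd1 limits held on the Sst side only, so genes that go with Foxp2 or Moxd1 cannot be told apart from the rule here. Of 13 tested genes of the intercalated and striatal-type list, none was higher and 6 (Rarb, Tshz1, Meis2, Rgs9, Oprm1 and Phactr1) fell, with a median log2 fold change of -1.08 over the list against 0.01 over all genes. Meis2 stood at 4.99 and 2.53 in Sst nuclei and at 15.5 and 16.7 in the matched nuclei. The strongest fall was that of Chst9, a sulfotransferase, with levels of 0.0876 and 0.256 against 4.94 and 4.53 (log2 -4.60 ± 0.36, edgeR adjusted p = 0.00012). Pbx3, a homeobox factor, followed the same pattern, with 1.05 and 1.13 against 8.23 and 10.5 (log2 -3.10 ± 0.29, edgeR adjusted p = 0.00043). Under equal limits, neither the 14 tested genes of this list nor Chst9 and Pbx3 passed the test, and Meis2 stood at 5.09 and 4.39 in the matched nuclei. Pbx3 was still lower there, by a smaller amount (log2 -0.82 ± 0.26, edgeR adjusted p = 0.17). The list's median log2 fold change was then -0.38. Other genes of the wider comparison by the naming rule fell to 1 to 5 UMIs in Sst nuclei (Frem1, the dopamine receptor Drd3, Sulf1, Gdpd5, Rai14, Eya4, Sntb1 and Tll1).

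In the narrower comparison, 64 of 6152 genes were higher and 65 lower in Sst nuclei (1.04% and 1.06%, 2.10% together). The replicate block raised this to 161 (2.62%) and 171 (2.78%), 5.40% together, which included all 129. With 1 matched nucleus per Sst nucleus, only 6 genes were called, Elfn1, Chrm2, Man1a and Trhde as higher and Adarb2 and Zmat4 as lower. All further values refer to this narrower comparison unless stated.

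Among the MGE factors, 3 rose and 3 fell. Lhx6, the LIM homeobox factor that specifies MGE interneurons, stood at 0.832 and 0.588 in Sst nuclei and at 0.174 and 0.152 in matched nuclei (log2 2.08 ± 0.37, edgeR adjusted p = 0.013). Sox6, an SRY-box factor acting after Lhx6, stood at 10.95 and 12.8 against 3.94 and 4.08 (log2 1.58 ± 0.26, edgeR adjusted p = 0.0089), and 70.4% and 89.1% of Sst nuclei had a UMI against 28.4% and 34.8%. Satb1 stood at 1.53 and 2.28 against 0.422 and 0.431 (log2 2.19 ± 0.29, edgeR adjusted p = 0.0030). Satb1, like Elfn1 and Calb1, is a marker of the label that was named with these data known. Tests of these markers are therefore no independent evidence. For Lhx6, Sox6 and Satb1, both Sst values lay above both matched values. Such gaps were not counted over all tested genes. All 129 called genes changed the same way in both libraries, so a gap in a called gene is no further evidence. They lie at chr2:36081953-36105408, chr7:115470872-116038796 and chr17:51736187-51833290 (GRCm38), in the same order. Of 11 tested genes of the MGE list, these 3 rose and Zeb2, St18 and Npas1 fell, beside 1.04% and 1.06% of all tested genes. The list's median log2 fold change was 0.04 against 0.00 over all genes. In the wider comparison, 4 of 9 tested genes of the list rose and none fell, beside 1.69% and 1.60% of all tested genes. The list's median there was 0.92 against 0.01. Zeb2, a zinc-finger homeobox repressor that migrating interneurons use, stood at 3.33 and 3.71 against 8.07 and 10.0 (log2 -1.36 ± 0.27, edgeR adjusted p = 0.019). Npas1, a basic helix-loop-helix repressor, had 1 UMI in all Sst nuclei and 70 in the matched nuclei. Maf rose in the wider comparison only (log2 1.01 ± 0.23, edgeR adjusted p = 0.031), and here stood at 2.28 and 2.33 against 1.60 and 1.62 (edgeR adjusted p = 0.46); the 2 results were not tested against each other.

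**Figure D3:**
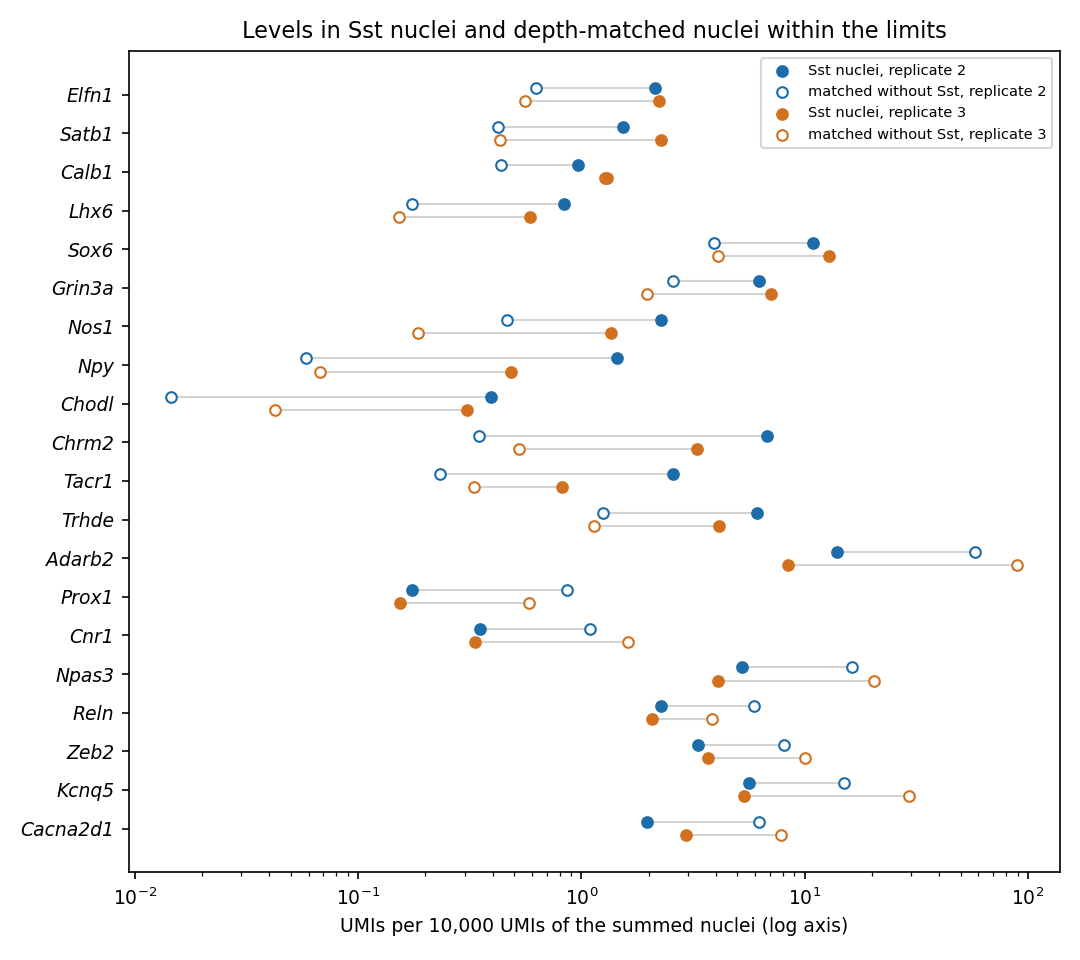
Levels in UMIs per 10,000 (horizontal log axis) of 20 genes in Sst nuclei (filled) and depth-matched nuclei without Sst under the same limits (open), replicate 2 in blue and replicate 3 in orange; grey lines join the values of a library. Genes from Elfn1 to Trhde lie to the right in Sst nuclei in both libraries, with the 2 Calb1 values of replicate 3 nearly on top of each other, and those from Adarb2 to Cacna2d1 lie to the left.

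Of 17 tested genes that mark Sst interneurons in cortex, 8 rose and none fell, beside 1.04% and 1.06% of all tested genes. The list's median log2 fold change was 1.14 against 0.00 over all genes. Among the 8 were Elfn1, Grin3a, Npy, Nos1, Chodl, Tacr1 and Trhde. This list was drawn up with earlier results known and is no independent evidence of its direction. Elfn1 stood at 2.15 and 2.23 against 0.625 and 0.558 (log2 1.90 ± 0.25, edgeR adjusted p = 0.0030). Trhde, which breaks down thyrotropin-releasing hormone, stood at 6.09 and 4.14 against 1.25 and 1.14 (log2 2.08 ± 0.25, edgeR adjusted p = 0.0021). Both genes were several-fold higher in either library. Nxph1, a secreted neurexin ligand, and Crhbp, which binds corticotropin-releasing hormone, passed the test in the wider comparison. Under equal limits, Nxph1 stood at 22.5 and 29.6 against 11.6 and 13.9 (edgeR adjusted p = 0.13, and 4.9e-05 with the replicate block). Crhbp stood at 0.438 and 0.358 against 0.145 and 0.0592 (edgeR adjusted p = 0.071, and 0.0030 with the block). Calb1 was not separated in level, with 0.964 and 1.30 against 0.436 and 1.28 (log2 0.36 ± 0.43, edgeR adjusted p = 0.90). More Sst nuclei than matched nuclei had a Calb1 UMI, 44.4% and 41.3% against 16.05% and 26.8%, yet after thinning to 2400 UMIs the shares were 8.70% and 18.2% against 7.25% and 15.9%.

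Glutamate receptor genes rose in 3 of 22 tested cases and fell in none, beside 1.04% and 1.06% of all tested genes. Grin3a, the GluN3A subunit of NMDA receptors, stood at 6.26 and 7.03 against 2.56 and 1.96 (log2 1.58 ± 0.24, edgeR adjusted p = 0.0062). Grik3, a kainate receptor subunit, stood at 4.73 and 3.35 against 1.77 and 1.84 (log2 1.14 ± 0.24, edgeR adjusted p = 0.027). In both of these the groups did not overlap, a gap not counted over all tested genes. Grik1, another kainate subunit, rose in the wider comparison (20.8 and 27.1 against 6.86 and 5.21, log2 2.01 ± 0.28, edgeR adjusted p = 0.0027). Under equal limits its matched levels were 13.0 and 8.61 (edgeR adjusted p = 0.064, and 1.6e-05 with the replicate block).

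Some peptide and receptor genes rose by large factors. Npy, neuropeptide Y, stood at 1.45 and 0.486 in Sst nuclei and at 0.0582 and 0.0676 in matched nuclei (log2 3.74 ± 0.54, edgeR adjusted p = 0.0042). Chrm2, the M2 muscarinic receptor, stood at 6.79 and 3.30 against 0.349 and 0.524 (log2 3.43 ± 0.35, edgeR adjusted p = 0.00083). Nos1, neuronal nitric oxide synthase, stood at 2.28 and 1.36 against 0.465 and 0.186 (log2 2.54 ± 0.36, edgeR adjusted p = 0.0042). For all 3 genes, replicate 2 was the higher library in Sst nuclei. No value of the groups overlapped for these 3 genes, which was not counted over all tested genes. Their genes lie at chr6:49822710-49829507, chr6:36388084-36528414 and chr5:117781032-117958840 (GRCm38). Tacr1, the substance P receptor, stood at 2.58 and 0.818 against 0.233 and 0.330 (log2 2.43 ± 0.43, edgeR adjusted p = 0.013). Npsr1, the neuropeptide S receptor, stood at 1.93 and 1.82 against 0.538 and 0.203 (log2 2.45 ± 0.34, edgeR adjusted p = 0.0040). Chodl, a lectin-like membrane protein, had 21 UMIs in Sst nuclei and 6 in matched nuclei (log2 3.35 ± 0.66, edgeR adjusted p = 0.018). The size of these changes depended on the library. In replicate 3 alone the log2 change of Tacr1 was 1.17, that of Npy 2.38, that of Chrm2 2.51 and that of Chodl 2.22, and in replicate 2 alone that of Npsr1 was 1.67. Of 13 tested neuropeptide genes, Npy and Vgf rose and none fell. Of 22 tested neuromodulator receptor genes, Chrm2 and Tacr1 rose, and Chrna7, Adra1b and Cnr1 fell, beside 1.04% of all tested genes that rose and 1.06% that fell.

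Several of these rises came from a few nuclei. There were 9 Sst nuclei, 3 in replicate 2 and 6 in replicate 3, with UMIs of at least 2 of Npy, Nos1 and Chodl, and 6 of them had all 3. They made up 12.3% of the Sst nuclei and 11.9% of their UMIs. They held 82.7% of the Npy, 88.6% of the Nos1 and 85.7% of the Chodl UMIs of the Sst nuclei, which is how they were picked. Genes that did not pick them were concentrated there as well: 63.7% of Tacr1, 56.7% of Chrm2 and 27.7% of Sox6 UMIs were in these nuclei, and Tacr1 was found in all 9. Sox6 stood at 34.3 and 23.8 in them and at 7.34 and 11.5 in the other Sst nuclei. Chrm2 stood at 21.2 and 22.2 against 4.55 and 0.949. Satb1 was found in all 9 as well, at 1.31 and 3.00 against 1.57 and 2.19.

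In the same 9 nuclei, other genes of the type went both ways. Grin3a stood at 12.1 and 14.3 against 5.36 and 6.13 in the other Sst nuclei, and Crhbp at 0.980 and 1.15 against 0.354 and 0.259. Elfn1 stood at 0.327 and 0.924 against 2.43 and 2.39, with 5 UMIs in all. Calb1 stood at 0.327 and 0.231 against 1.06 and 1.44. Reln, of the CGE-type list, had no UMI in the 9 nuclei against levels of 2.63 and 2.33 in the rest. Their median Sst count was 8 in replicate 2 and 6 in replicate 3, against 2 and 1 in the others, at median depths of 10113 and 6865.5 UMIs against 7693 and 7812. In the 64 other Sst nuclei, Nos1 stood at 0.152 and 0.259, Npy at 0.152 and 0.173 and Tacr1 at 0.911 and 0.431. In matched nuclei, of which 4 of 219 met the same criterion and were kept, the levels were 0.465 and 0.186 for Nos1, 0.0582 and 0.0676 for Npy and 0.233 and 0.330 for Tacr1. The Nos1 values of the 64 nuclei overlap these, and those of Npy and Tacr1 lie above both. With so few nuclei chosen on the values themselves, these figures are descriptions without a test.

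Shares of nuclei with these genes were also read along the Sst count; 6 of the 14 nuclei with 5 or more Sst UMIs are among the 9 above. Npy was found in 0 of 10 and 0 of 22 nuclei with 1 Sst UMI, in 3 of 11 and 2 of 16 with 2 to 4, and in 3 of 6 and 6 of 8 with 5 or more. Klf5, a zinc-finger factor, was found in 1 of 10 and 1 of 22 at 1 UMI and in 4 of 6 and 4 of 8 at 5 or more. Satb1 was found in 6 of 6 and 8 of 8 nuclei with 5 or more Sst UMIs, in 7 of 11 and 8 of 16 with 2 to 4, and in 0 of 10 and 11 of 22 with 1. Elfn1 levels from the lowest to the highest Sst count were 3.45, 1.23 and 2.29 in replicate 2, without an order, and 1.90, 2.13 and 3.31 in replicate 3. Lower values at high Sst counts were seen for genes of other types and also for the label marker Calb1. Its levels were 1.48 and 1.51 at 1 Sst UMI, 1.02 and 1.51 at 2 to 4, and 0.430 and 0.301 at 5 or more. Shares of nuclei with Calb1 had no such order, with 3 of 10 and 7 of 22, 6 of 11 and 10 of 16, and 3 of 6 and 2 of 8. Adarb2 is an RNA-editing deaminase relative that marks CGE interneurons. Adarb2 levels were 25.6 and 14.97 at 1 Sst UMI, 14.1 and 3.78 at 2 to 4, and 3.58 and 0.753 at 5 or more. Few nuclei held it at 5 or more (1 of 6 and 3 of 8), beside 5 of 10 and 18 of 22 at 1. Meis2 was found in 3 of 10 and 8 of 22 nuclei with 1 Sst UMI, in 4 of 11 and 4 of 16 with 2 to 4, and in 0 of 6 and 1 of 8 with 5 or more. Depth differed between these classes in replicate 2, with medians of 3872.5, 8321 and 11145.5 UMIs, and less so in replicate 3, with 6825, 8215.5 and 8071.5. After thinning to 2400 UMIs, Npy was found in 2 of 6 and 4 of 7 nuclei with 5 or more Sst UMIs and in 0 of 6 and 0 of 21 with 1. Klf5 was then found in 0 of 6 and 4 of 7 nuclei with 5 or more, and Satb1 in 2 of 6 and 5 of 7, beside 5 of 11 and 5 of 16 with 2 to 4 and 0 of 6 and 8 of 21 with 1. At equal depth, Klf5 in replicate 2 and Satb1 in both replicates thus did not increase at each step of the Sst count.

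**Figure D4:**
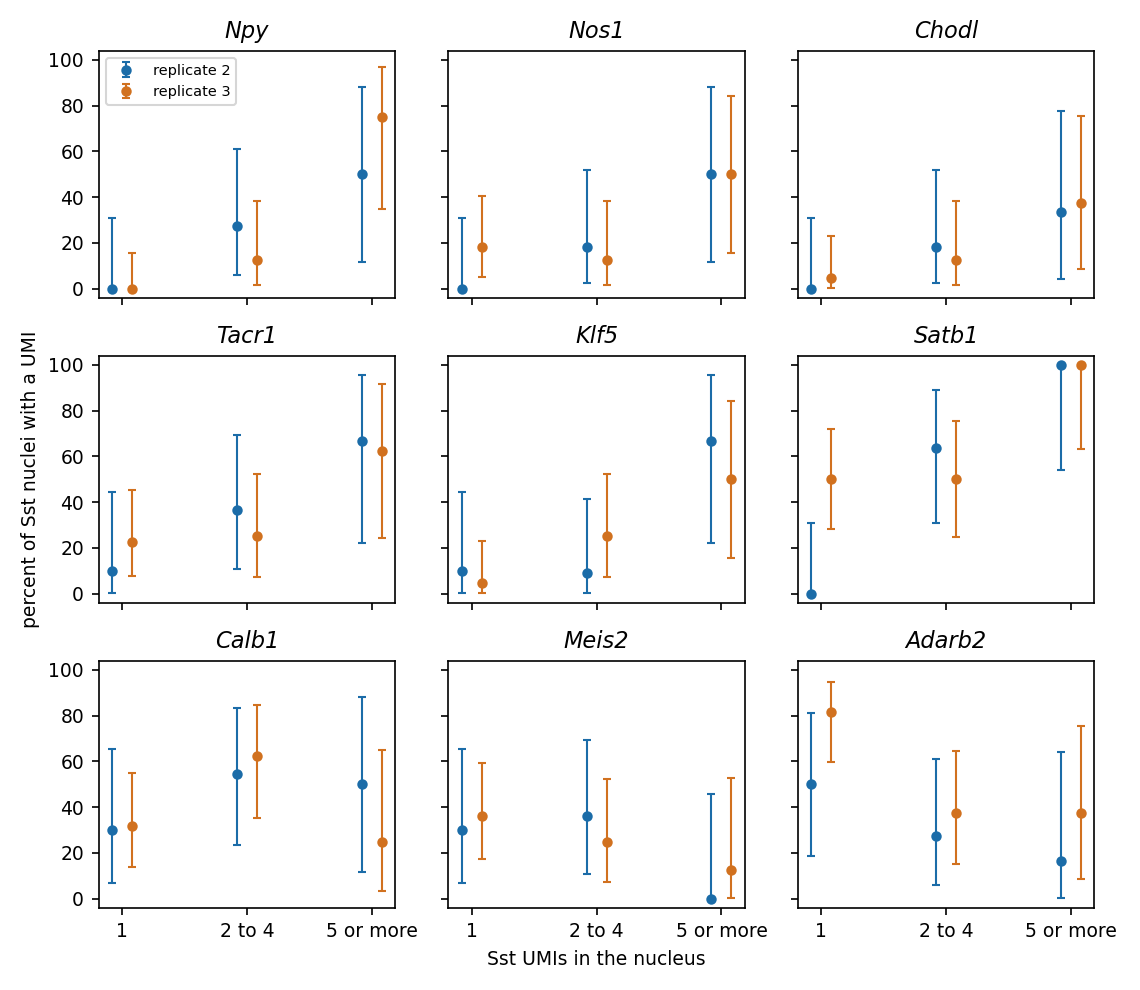
Percent of Sst nuclei with at least 1 UMI of 9 genes (vertical axes) by the Sst UMIs of the nucleus (horizontal axis), replicate 2 in blue and replicate 3 in orange; bars are exact binomial 95% intervals, which cover counting error only. At 5 or more Sst UMIs, Npy was found in 3 of 6 and 6 of 8 nuclei and Satb1 in all of them, where Meis2 was found in 0 of 6 and 1 of 8.

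The remaining higher genes named by size did not share a role. Gldn (gliomedin), Mageb18 (a MAGE family protein), Rnf152 (a ubiquitin ligase) and Klf5 had log2 fold changes between 2.62 and 3.62 from 27 to 40 UMIs in Sst nuclei. Gfra2 (a neurturin co-receptor), Prkcq (protein kinase C theta), Spon1 (an extracellular matrix protein) and Man1a (a Golgi mannosidase) had changes between 2.09 and 2.53. Man1a was the most abundant of these, at 5.30 and 5.32 against 1.02 and 1.43 (log2 2.09 ± 0.27, edgeR adjusted p = 0.0030), and 66.7% and 67.4% of Sst nuclei had a UMI. The size of the Prkcq change depended on the library. Prkcq had 10 UMIs in 27 Sst nuclei and 15 in 81 matched nuclei of replicate 2. In replicate 3 it had 36 UMIs in 46 Sst nuclei and 12 in 138 matched nuclei. In the wider comparison, Stac, Lypd6 and Lypd6b were also among the 15 largest rises (log2 2.53 to 2.98). Stac is an adaptor of calcium channels, and Lypd6 and Lypd6b are modulators of nicotinic receptors. Under equal limits, Lypd6b passed the test (log2 1.92 ± 0.38, edgeR adjusted p = 0.018). Lypd6 did not pass there (log2 1.45 ± 0.45, edgeR adjusted p = 0.16).

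Several CGE-type genes fell in Sst nuclei. Of 10 tested genes of that list, 5 fell (Prox1, Adarb2, Cnr1, Reln and Npas3) and none rose. Over all tested genes, 1.06% fell and 1.04% rose. The list's median log2 fold change was -1.43 against 0.00 over all genes. Adarb2 stood at 14.0 and 8.39 in Sst nuclei and at 58.0 and 89.7 in matched nuclei (log2 -2.76 ± 0.38, edgeR adjusted p = 0.0040). Npas3, a helix-loop-helix factor of CGE interneurons, stood at 5.26 and 4.09 against 16.3 and 20.4 (log2 -1.99 ± 0.29, edgeR adjusted p = 0.0042). Both were several-fold lower in each library, and the log2 change of Adarb2 was -2.14 in replicate 2 alone and -3.50 in replicate 3 alone. Prox1, a homeobox factor retained in CGE interneurons, stood at 0.175 and 0.153 against 0.858 and 0.583 (log2 -2.09 ± 0.42, edgeR adjusted p = 0.019). Cnr1, the cannabinoid receptor, stood at 0.350 and 0.333 against 1.09 and 1.62 (log2 -2.01 ± 0.36, edgeR adjusted p = 0.013). Reln, the secreted protein reelin, stood at 2.28 and 2.07 against 5.93 and 3.84 (log2 -1.14 ± 0.26, edgeR adjusted p = 0.036), and 30.1% of its UMIs in Sst nuclei lay in 1 nucleus. In the wider comparison, 2 of 11 tested genes of the list fell, beside 1.60% of all tested genes. They were Adarb2 and the synaptic vesicle gene Sv2c. The list's median was -0.56, and Reln stood at 2.73 and 2.21 in the matched nuclei of that comparison (edgeR adjusted p = 0.83). The fall of Reln thus appeared under equal limits and not in the wider comparison, a difference that was not itself tested.

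Of 43 tested potassium, sodium, calcium and HCN channel genes, none rose and 3 fell, beside 1.06% of all tested genes that fell. Kcnq5, an M-current channel, stood at 5.65 and 5.35 against 15.1 and 29.3 (log2 -2.04 ± 0.36, edgeR adjusted p = 0.013). The size of its fall depended on the library and was smaller in replicate 2. Cacna2d1, a calcium channel subunit, stood at 1.97 and 2.94 against 6.25 and 7.86 (log2 -1.49 ± 0.29, edgeR adjusted p = 0.018), and Kcnh1 at 1.18 and 0.921 against 2.06 and 2.56 (log2 -1.17 ± 0.27, edgeR adjusted p = 0.043). Of 14 tested genes of GABA transport and reception, only the receptor subunit Gabrb2 passed, with 2.28 and 2.81 against 5.16 and 5.66 (log2 -1.07 ± 0.26, edgeR adjusted p = 0.0498). Of 21 tested synapse adhesion genes, Elfn1 and Il1rapl2 rose, beside 1.04% of all tested genes. None of the 5 tested parvalbumin-type genes and of the 7 tested central and medial amygdala genes passed, beside 2.10% of all tested genes. Lists of 5 and 7 genes are too short to show a lack of difference at that share.

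**Figure D5:**
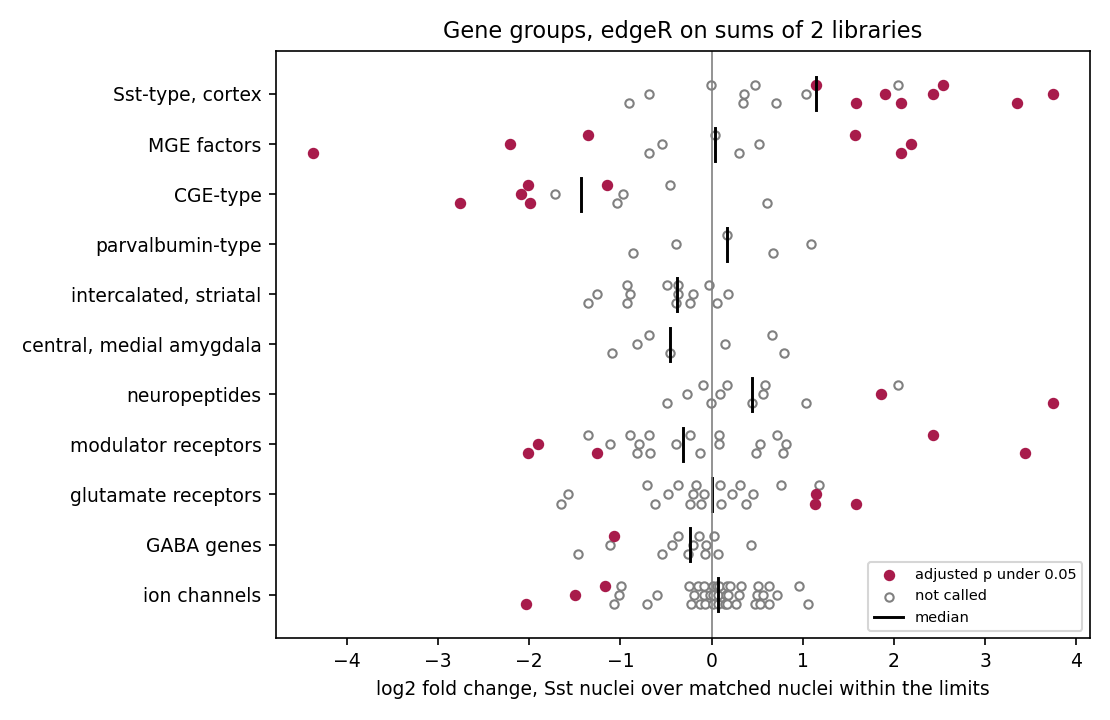
Log2 fold changes (horizontal axis) of the tested genes of 11 gene groups in Sst nuclei over matched nuclei under the same limits; filled points have an edgeR adjusted p under 0.05, open points do not, and black bars are group medians. Called genes of the Sst-type group lie to the right and those of the CGE-type group to the left, while the MGE factors have 3 on each side.

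The lowest genes by size were near 0 in Sst nuclei. Frem1, an extracellular matrix protein, had 1 UMI against 178 in the matched nuclei, Necab2 had 1 against 59 and Pde5a, a cyclic GMP phosphodiesterase, 3 against 138. Oma1, a mitochondrial protease, had none against 40, which is at least 4.41-fold lower if 3 counts over the group are taken as the floor. Bcas1, Sntb1, Arhgap31 and Ror1 had log2 fold changes between -3.56 and -3.00, and 1 matched nucleus held 47.8% of the Bcas1 UMIs.

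Several genes that define other interneurons, or Sst subtypes elsewhere, were hardly seen. Pvalb, the calcium buffer of fast-spiking interneurons, had 1 UMI in the 73 nuclei and none in the matched nuclei, and Cort, the somatostatin relative cortistatin, likewise had 1 and none. Crh, Tac1 and Pdyn, peptide genes of amygdala and cortical interneurons, had none in Sst nuclei (0 of 27 and 0 of 46, which at a limit of 3 counts allow shares of nuclei with a UMI of up to 11.1% and 6.52%) and 4 to 5 UMIs in the matched nuclei. Vip was found in 1 of 27 and 1 of 46 Sst nuclei against 4 of 81 and 13 of 138, and Lamp5 in 0 of 27 and 1 of 46 against 10 of 81 and 13 of 138. Penk, proenkephalin, was found in 14.8% and 6.52% against 12.3% and 7.25%. Htr2a, a serotonin receptor, was found in 7.41% of Sst nuclei of replicate 2 and 34.8% of replicate 3, so that the libraries differed more than the groups did (11.1% and 24.6% in matched nuclei). None of the 5 somatostatin receptor genes passed the filter on low counts: Sstr1, Sstr2 and Sstr3 had 1 UMI each and Sstr4 and Sstr5 none, so that differences were not detectable at this depth.

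Markers of other cells were mostly lower in Sst nuclei than in matched nuclei, except for microglia genes in replicate 2 and precursor and glutamatergic genes in replicate 3. The 10 astrocyte genes summed to 4.64 and 4.71 against 6.17 and 7.88 in matched nuclei, with Gpc5 (105 UMIs) the most abundant and Aqp4, Gja1, Gfap and Ntsr2 at 0, and Gpc5 fell (log2 -1.43 ± 0.31, edgeR adjusted p = 0.028). Of these 10 genes, 2 (Slc1a2 and Slc1a3) were limited by the rule in both groups. The 9 oligodendrocyte genes summed to 0.438 and 1.48 against 5.54 and 2.97, with Mbp (33 UMIs) the most abundant in Sst nuclei. Of 3 tested oligodendrocyte genes, 2 fell, St18 among them, beside 1.06% of all tested genes. The 7 precursor genes summed to 5.30 and 11.2 against 11.4 and 10.6, led by Lhfpl3, with Olig2 at 0. The 8 microglia genes summed to 1.18 and 0.307 against 0.276 and 0.313, with C1qa at 0, and the 7 vascular genes to 0.175 and 0.102 against 0.291 and 0.380, led by Bsg with 6 UMIs and with Cldn5, Flt1, Pdgfrb, Rgs5 and Vtn at 0. The 12 glutamatergic genes summed to 11.3 and 10.3 against 11.9 and 9.79, led by Cdh13, with Slc17a7 and Slc17a6 at 0 by the rule and Neurod6 and Tbr1 also at 0. The part of the glial UMIs of matched nuclei in the other differences was not tested. Mitochondrial UMIs were few, with medians of 0.146% and 0.0569% in Sst nuclei and 0.101% and 0.0327% in matched nuclei.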

How the data were processed

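Libraries were made with 10x 3' v3.1 chemistry. The authors aligned reads with Cell Ranger 7.0.1 to mm10 and deposited UMI counts per gene and barcode, not normalized. Members and gene lists were chosen with earlier results of these data known. Replicate 1 was not used (19 base nuclei). No doublets were removed from the main set; scoring against simulated doublets, after DoubletFinder's procedure, marked 277 barcodes, 1 of them a Sst nucleus, which were left out in an alternative. Matching used a window of 0.1 in log10 UMIs. Sums were tested with edgeR 4.0.16 (TMM, filterByExpr, glmQLFit) in R 4.3.3, leaving out the 9 rule genes. Sums of 1 library share a suspension, hence the replicate block. Named genes were the 15 highest and 10 lowest called genes per comparison with at least 30 UMIs and the same direction in both libraries, without mitochondrial, ribosomal protein and unnamed gene models, plus members of the lists; genes beyond these were named after their values were seen, and a few are not reported here. Gene positions came from GENCODE vM21 (99.8% of identifiers matched). Tested on simulated data, 91% and 89% of 4-fold changes and 29% of 2-fold changes were recovered in the wider and the narrower comparison. Each of these settings also gave 6 false calls. DESeq2 1.42.0, other thresholds, matching, filters and thinning were alternatives. Intervals are exact binomial and cover counting error only.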

Additional observations from a re-analysis of the deposited data

Results flagged for a closer look

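Replicate 1, which entered neither comparison, also had Sst signal. By the same rule 9 of its 19 base nuclei were Sst nuclei (47.4%, exact binomial 95% interval 24.4 to 71.1), 8 of them with a single Sst UMI. In the same library 40 of 77 glutamatergic barcodes (51.9%) carried a Sst UMI at a median of 7764 UMIs, against 3 of 252 (1.19%) and 0 of 63 (up to 4.76% at a limit of 3 counts) in replicates 2 and 3. The Sst share of its base nuclei lay below that of barcodes that should lack Sst and is not read as expression.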

How the results depend on the processing

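The share of Sst nuclei among base nuclei, 4.44% as the mean of both libraries, was 2.56% with at least 2 and 1.70% with at least 3 Sst UMIs, 3.23% with no Foxp2 or Moxd1 UMI allowed, 8.58% with neither limit and 4.26% in thinned counts, and ranged from 4.42% to 4.46% when either replicate was left out. Counts of called genes have no value without a replicate, since no residual degrees of freedom remain. DESeq2 called 129 genes in the wider comparison, 118 of them among the 201 called by edgeR, and 80 in the narrower one, 74 of them among the 129. Without a filter on low counts, 206 were called in the narrower comparison. With the replicate block, which pairs the sums of a library, 369 and 332 genes were called, including all genes called without it. Adding replicate 1 left 1 gene in the wider comparison (Chst9) and 0 in the narrower one by edgeR, where 128 had an unadjusted p under 0.05. One matched nucleus per Sst nucleus left 6 genes in the narrower comparison, with 414 under an unadjusted p of 0.05. Every called gene kept its direction in each alternative that tested it, but sizes moved: without replicate 2 or without replicate 3, fold changes computed with a prior count of 2 differed by over 1.5 times from those of both libraries in 27 of 58 genes followed in the wider comparison and in 22 of 49 in the narrower one. Depth limits all values: the sums rest on 27 and 46 nuclei, many named genes on under 50 UMIs, and changes of 2-fold would mostly be missed.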

Other observations

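Outside the GABAergic base, Sst UMIs were also found in barcodes that held both Gad1 or Gad2 and a vesicular glutamate transporter. In replicates 2 and 3, 9 of 126 and 23 of 227 such barcodes carried Sst, and they held 13.0% and 13.7% of all Sst UMIs of the library, with up to 14 and 16 UMIs in 1 barcode. Barcodes with no Gad1 or Gad2 UMI held a further 24.0% and 21.7%, spread over 45 of 2970 and 65 of 3128 barcodes, 1 and 3 of which had 5 or more Sst UMIs.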
